A study of Rattus norvegicus with 20 samples.

Results

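The angiotensin and endothelin genes examined here are Ace, Agt, Agtr1a, Agtr2, Edn1, Edn3, Ednra, Ednrb and Ece1. Members were found by symbol, as every probe set (the group of short probes that reads one transcript) whose single gene symbol in the platform annotation is one of these. Of the 9 genes listed, 6 had a probe set, among 14217 genes in all, and these 6 genes were read by 9 probe sets: 2 each for Ace, Agtr1a and Agtr2, and 1 each for Agt, Edn1 and Ece1. Edn3, Ednra and Ednrb had no probe set under that rule and were not analysed here, so the endothelin receptors have no values below.

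Both systems are peptide hormone cascades. Agt encodes angiotensinogen, the precursor that renin cuts to angiotensin I, and Ace encodes the angiotensin-converting enzyme, which turns this into angiotensin II. Agtr1a and its close rodent copy Agtr1b encode the type 1 receptor, which couples to Gq proteins and mediates constriction, growth and matrix production, while Agtr2 encodes the type 2 receptor, abundant before birth and scarce in most adult tissues. Edn1 encodes the precursor of endothelin-1, a constrictor made largely by endothelium, and Ece1 encodes the enzyme that releases the active peptide. In the heart both systems are known for their part in the response of muscle and fibroblasts to load.

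The samples were 20 pieces of right ventricle from male Sprague Dawley rats of about 350 g, 1 array each. Rats with pulmonary embolism (PE, titled PE2.0) had received 2000000 polystyrene microspheres of 25 micron per 100 g into the right jugular vein in 0.01% Tween-20, and vehicle rats Tween-20 alone, 0.15 ml per 100 g by the sample fields and 0.01 ml by the design text. The spheres are inert beads that stand in for clots, and all hearts were taken at 6 weeks, rinsed of blood and divided into apex and outflow tract (base), which gave 4 groups of 5 arrays, by treatment and region. A free-text field describes vehicle treatment for all 20 samples, and the groups follow the titles.

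The deposited signals are linear intensities, and 500.2 was the trimmed mean of every array. Of 12 cardiomyocyte markers 11 were measured, none with a value of 0, and their summed signal was 425328 to 517072 on the vehicle outflow arrays and 194308 to 520363 on the PE outflow arrays. PE outflow replicate 2 stood apart: its GAPDH control probes near the 3' end were 6.12 times as bright as those near the 5' end, a ratio that shortened RNA raises, and the ratio was 1.70 to 2.34 on the other arrays of its group and 1.38 to 1.83 in the other 3 groups. Results on PE outflow are therefore also given without it.

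The first question was which of these genes PE changed in each region. In the outflow tract 6 of the 9 probe sets were higher in PE and 0 were lower, by limma at an adjusted p under 0.05. They read Agtr1a, Edn1, Ace and Ece1, with rises from 5.47-fold (Agtr1a) to 1.70-fold (Ece1) on the brightest probe set of each gene. The background was high, since 34.5% of all 31042 probe sets were called in this comparison and 19.6% were higher and 14.9% lower. On 5 of the 9 all PE arrays exceeded all vehicle arrays, as on 13.4% of all probe sets. The median log2 fold change was 1.0 over the 9 probe sets and 0.05 over all probe sets. The count was 6 as well without PE outflow replicate 2, and with PE outflow replicates 1 and 3 alone. Over all probe sets 10720 were called in the main fit, and 11525 and 7307 in these fits. In the apex 0 of the 9 were called, against 0.0129% of all probe sets. At an unadjusted p under 0.05, limma had 2 there (Ace and Edn1), against 7.47% of all probe sets, and every alternative fit gave 0 calls. Before log2 was taken 16 was added to each signal, so a fold change here understates the change of a dim probe set.

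**Figure D1:**
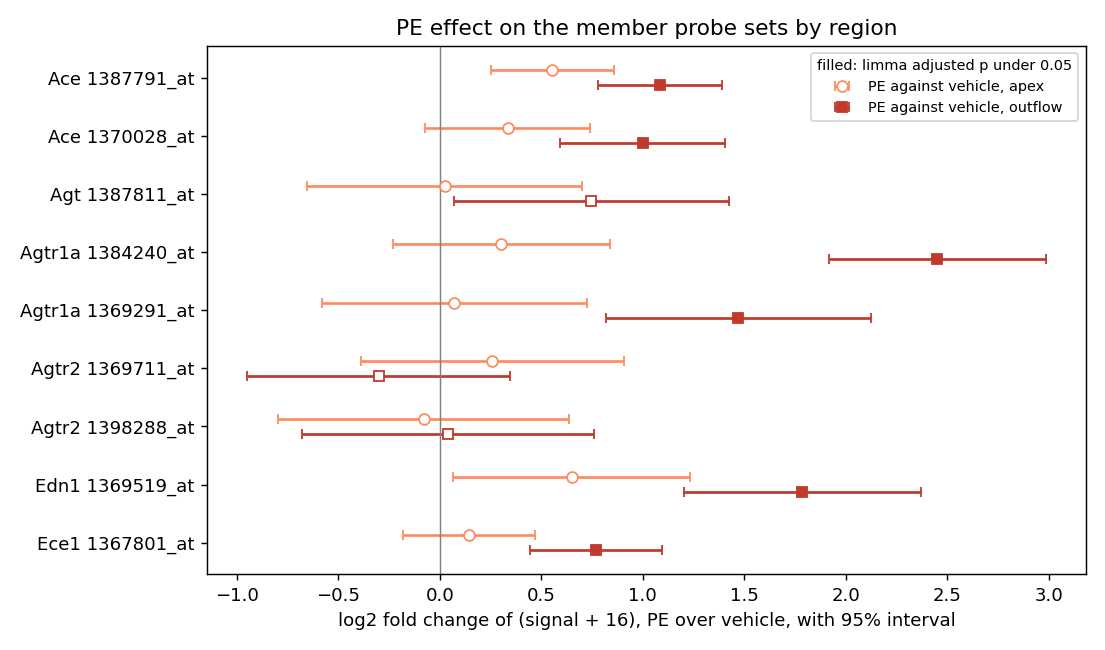
Log2 fold change of PE over vehicle for each of the 9 probe sets, in the apex (circles) and the outflow tract (squares), with 95% intervals from the limma fit; filled symbols passed an adjusted p of 0.05. Filled squares run from 0.77 (Ece1) to 2.45 (Agtr1a), and no apex symbol is filled.

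The start regions of the 3 genes that rose most in the outflow tract, Agtr1a, Edn1 and Ace, are shown. Each is the RefSeq window on GRCr8 from 250 bases before to 50 after the annotated start, 5' to 3' on the gene's strand. Capitals mark matches, on either strand, to TATAAA (the TATA box), AGATAA (bound by GATA factors), TGACTAA (a variant AP-1 site) and GGGCGG (Sp1 GC box).
Agtr1a, chr17:34435383-34435682, minus strand: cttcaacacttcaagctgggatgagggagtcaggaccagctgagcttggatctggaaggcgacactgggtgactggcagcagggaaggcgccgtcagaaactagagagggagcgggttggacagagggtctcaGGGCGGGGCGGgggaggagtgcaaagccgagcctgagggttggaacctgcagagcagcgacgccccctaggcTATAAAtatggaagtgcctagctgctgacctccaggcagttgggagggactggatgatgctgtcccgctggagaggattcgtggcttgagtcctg
Edn1, chr17:22666638-22666937, minus strand: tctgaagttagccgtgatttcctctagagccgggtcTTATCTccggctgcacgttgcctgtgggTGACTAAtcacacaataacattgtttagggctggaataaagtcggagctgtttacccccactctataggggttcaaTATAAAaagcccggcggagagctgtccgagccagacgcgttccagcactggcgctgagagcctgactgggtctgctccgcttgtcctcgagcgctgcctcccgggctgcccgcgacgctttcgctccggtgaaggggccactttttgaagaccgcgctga
Ace, chr10:91409879-91410178, plus strand: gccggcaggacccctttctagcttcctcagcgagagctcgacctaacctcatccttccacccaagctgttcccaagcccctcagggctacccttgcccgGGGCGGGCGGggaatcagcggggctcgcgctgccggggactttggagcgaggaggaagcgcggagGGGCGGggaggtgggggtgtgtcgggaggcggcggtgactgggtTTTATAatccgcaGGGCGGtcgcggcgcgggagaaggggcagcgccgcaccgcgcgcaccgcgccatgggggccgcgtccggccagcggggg
Matches were also sought to TGACTCA (the consensus AP-1 site), CATTCC (the TEAD site) and CACGTG (an E-box), and these 3 windows held none. All 3 held TATAAA, which 14.2% of the 33469 RefSeq windows of this length hold. The window of Ece1, also called higher in the outflow tract, held GGGCGG on the opposite strand and no TATAAA. That of Agtr2, which was not called, held none of the motifs sought. In Edn1 TATAAA began at base -110, with AGATAA on the opposite strand from -214 (11.6% of windows) and TGACTAA from -186 (2.34% of windows). Agtr1a had TATAAA from -45 and 2 overlapping GGGCGG matches from -117 and -112. Ace had 4 GGGCGG matches, 2 of them overlapping, and TATAAA on the opposite strand at -42. GGGCGG is common, in 33.1% of windows. A match describes letters and not a bound site, and the motifs were picked with the results known.

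The type 1 receptor gene Agtr1a had the largest rise of the 6 genes. On its brighter probe set (1384240_at) the vehicle outflow signals were 133, 126, 137, 115 and 116 on replicates 1 to 5, and the PE outflow signals were 612, 353, 778, 1235 and 1182. The groups did not overlap, and the lowest PE array was replicate 2. The mean rose from 125 ± 9.88 to 832 ± 376 (SD, n = 5 each). Between means of log2 signals, as limma takes it, the log2 fold change was 2.45 ± 0.25 (SE, limma adjusted p = 7.26e-07). It was 2.72 without PE outflow replicate 2. In the apex the signals were 131, 213, 201, 159 and 169 in vehicle rats and 243, 184, 156, 238 and 281 in PE rats. These groups overlapped, and the log2 fold change was 0.30 ± 0.25 (limma adjusted p = 0.846), with a 95% interval from -0.23 to 0.84.

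The dimmer probe set of Agtr1a (1369291_at) moved the same way in the outflow tract and less far. Its vehicle outflow signals were 93.3, 58.4, 95.9, 77.7 and 74.4, and its PE outflow signals 238, 96.8, 257, 421 and 352. Replicate 2 of PE, at 96.8, lay just above the highest vehicle array at 95.9. The log2 fold change was 1.47 ± 0.31 (limma adjusted p = 0.000945), and 1.78 without that replicate. In the apex its signals were 135, 121, 47.5, 120 and 64.4 in vehicle rats and 92.9, 63.0, 152, 86.3 and 108 in PE rats, so the groups overlapped widely. The log2 fold change there was 0.07 ± 0.31 (limma adjusted p = 0.985). Rodents carry a near-identical copy, Agtr1b, whose own probe set had a mean signal of 23.4 in vehicle outflow and a log2 fold change of 0.09 ± 0.24 there (limma adjusted p = 0.835). Whether the probe sets of these genes share signal was not tested.

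Agtr1a also had the clearest difference between the regions. The PE effect was larger in the outflow tract than in the apex by 2.15 ± 0.36 on the log2 scale on the brighter probe set (limma adjusted p = 0.000802) and by 1.40 ± 0.44 on the dimmer one (limma adjusted p = 0.0328). These were the 2 of 9 probe sets called for the difference, against 17.9% of all probe sets called and 9.84% higher. The first call held in every setting, with 1.88 to 2.53. The second was lost without vehicle apex replicate 1, 2 or 4, PE apex replicate 1, 2 or 4, vehicle outflow replicate 2 or 5, or PE outflow replicate 4 or 5, with values from 1.22 to 1.39 and adjusted p from 0.0514 to 0.0668. It also missed the threshold under quantile normalization (1.26, limma adjusted p = 0.0699) and with arrays centred on their median (1.29, limma adjusted p = 0.0568).

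Of the other angiotensin receptor gene, Agtr2, both probe sets were dim. Signals of 1369711_at ran from 9.96 to 48.3 in vehicle apex, 19.5 to 37.4 in PE apex, 10.4 to 70.7 in vehicle outflow and 7.62 to 37.2 in PE outflow. Those of 1398288_at ran from 4.08 to 34.4, 2.33 to 31.3, 4.20 to 32.0 and 1.96 to 32.3 in the same order. The 4 groups overlapped throughout on both. The log2 fold change in the outflow tract was -0.30 on the first, with a 95% interval from -0.95 to 0.35, and 0.04 on the second, with one from -0.68 to 0.76 (limma adjusted p = 0.51 and 0.948). Many values were close to the added 16, so these intervals do not show equal expression, and no detection calls were used here.

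**Figure D2:**
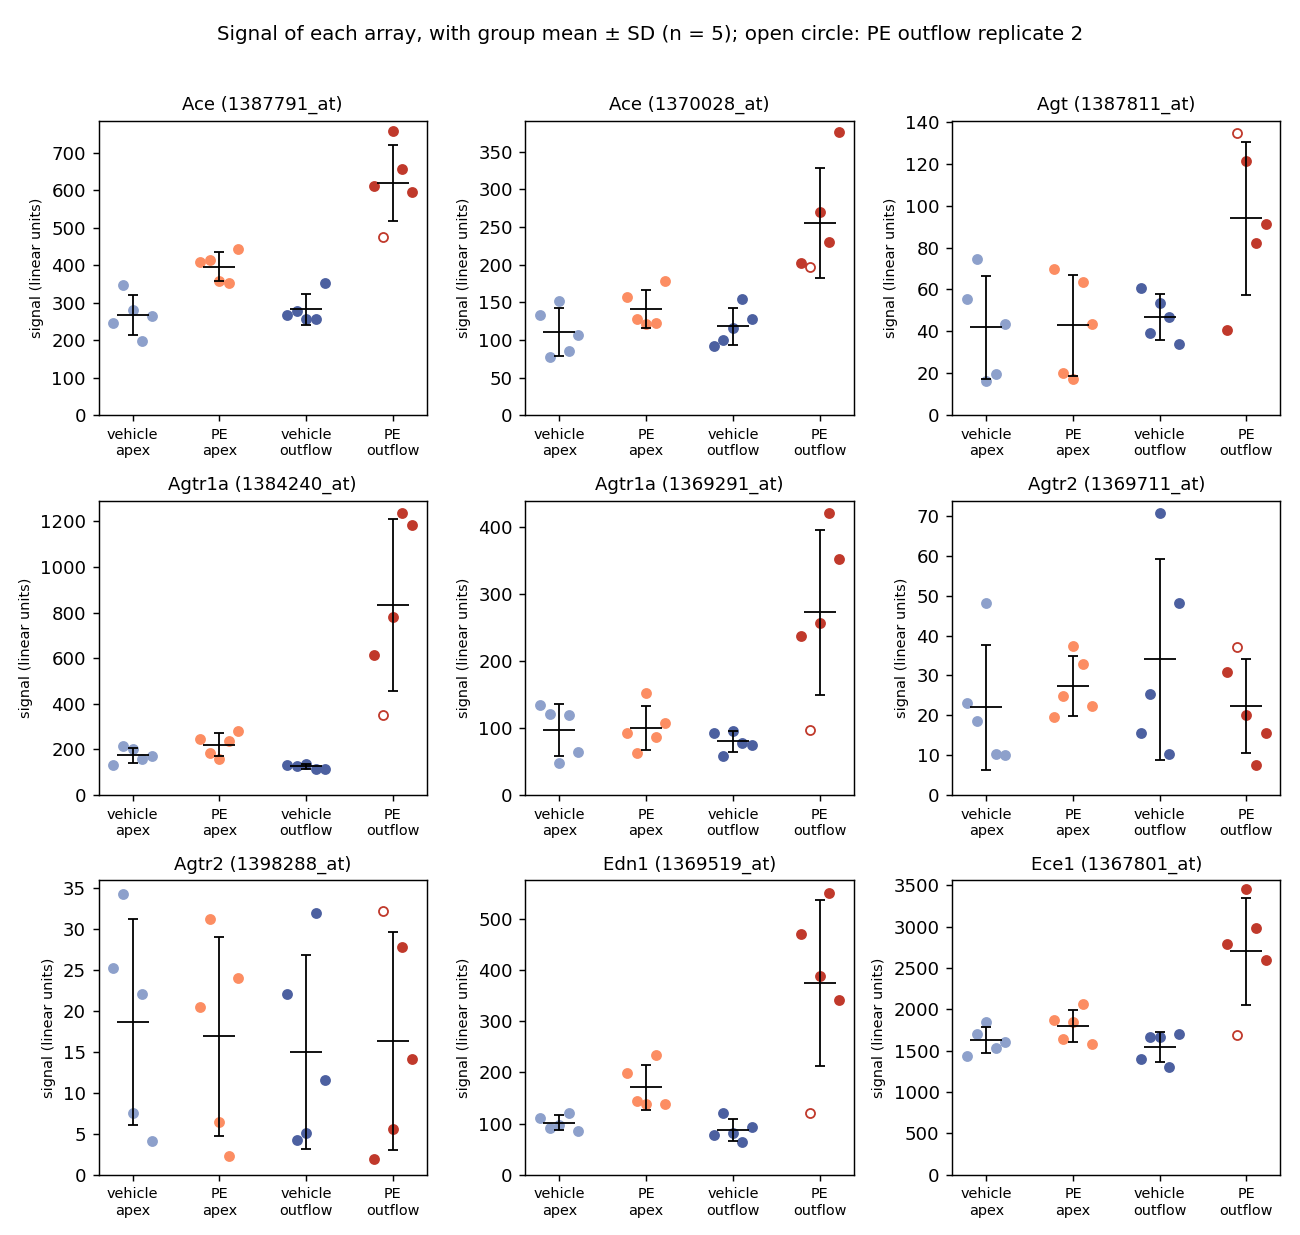
Signal of every array for the 9 probe sets, on linear axes that start at 0, with points for arrays and bars for the group mean ± SD (n = 5). The open circle is PE outflow replicate 2, the lowest PE outflow array for Agtr1a, Edn1, Ece1 and Ace and the highest for Agt and Agtr2.

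Ligand genes came next. For Edn1, the endothelin-1 precursor, vehicle outflow signals were 78.1, 121, 81.8, 64.3 and 94.0, and PE outflow signals 470, 121, 388, 550 and 342. Of the PE arrays 4 were far above the vehicle arrays, while replicate 2, at 120.9, was level with the highest vehicle array at 120.6. Mean signal rose from 87.8 ± 21.2 to 374 ± 162 (SD, n = 5 each). The limma rise, taken between means of log2 signals and not between these means, was 3.45-fold (log2 1.79 ± 0.28, limma adjusted p = 4.95e-05). The log2 fold change was 2.13 without replicate 2.

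In the apex Edn1 had vehicle signals of 111, 91.8, 97.2, 121 and 85.7 and PE signals of 200, 144, 138, 234 and 138. Every PE array exceeded every vehicle array, as for 1.56% of all probe sets. The log2 fold change was 0.65 ± 0.28 with a 95% interval from 0.06 to 1.23, and it did not pass the adjustment over all probe sets (limma adjusted p = 0.606). The PE effect in the outflow tract exceeded this by 1.14 ± 0.40, just short of the threshold (limma adjusted p = 0.0526). With apex and outflow arrays of one treatment and replicate number as a block, taken as one rat by inference from the data, it passed (limma adjusted p = 0.041). It passed too without PE outflow replicate 2 (1.48), without PE apex replicate 4 (1.25) and without vehicle outflow replicate 2 (1.24). In 21 of 31 alternative settings it stayed uncalled, with limma adjusted p up to 0.117.

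Agt, the angiotensin precursor, was dim and scattered. Vehicle outflow signals were 60.8, 39.0, 53.6, 47.0 and 33.9, and PE outflow signals 40.9, 135, 121, 82.1 and 91.0. Here 4 PE arrays exceeded every vehicle array and replicate 1 lay within the vehicle range. The log2 fold change was 0.75 ± 0.32 and was not called (limma adjusted p = 0.0843). Without PE outflow replicate 1 it was 0.97 and passed (limma adjusted p = 0.0241). Without PE outflow replicate 2, the highest of the PE outflow arrays here, it was 0.61 and was not called (limma adjusted p = 0.178). With the GAPDH ratio as a covariate it was 0.49 and was not called (limma adjusted p = 0.396). In the apex the signals ran from 16.5 to 74.6 in vehicle rats and from 17.1 to 69.8 in PE rats, nearly the same range. The means were 41.9 ± 24.5 in vehicle and 42.8 ± 24.2 in PE rats (SD, n = 5 each), with a log2 fold change of 0.02 and a 95% interval from -0.65 to 0.70.

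The 2 processing enzymes rose in the outflow tract by smaller folds. Ace, the converting enzyme, had vehicle outflow signals of 266, 278, 258, 256 and 352 on its brighter probe set (1387791_at) and PE outflow signals of 611, 475, 757, 656 and 595. All PE arrays were above all vehicle arrays, replicate 2 included. The mean rose from 282 ± 40.3 to 619 ± 102 (SD, n = 5 each). Between means of log2 signals, as limma takes it, the rise was 2.12-fold (log2 1.09 ± 0.15, limma adjusted p = 9.9e-06). On the other probe set (1370028_at) vehicle outflow signals were 91.4, 100.1, 115, 154 and 128, and PE outflow signals 202, 197, 269, 230 and 376. These groups did not overlap either, with a log2 fold change of 1.0 ± 0.19 (limma adjusted p = 0.000423). Without PE outflow replicate 2 the brighter probe set of Ace had 1.17 and the dimmer one 1.08, both called.

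In the apex the brighter Ace probe set had vehicle signals of 245, 347, 279, 199 and 266 and PE signals of 409, 415, 358, 353 and 444, which did not overlap. The log2 fold change of 0.56 ± 0.15 had the smallest p of the members in the apex (unadjusted p = 0.00116, limma adjusted p = 0.263). The dimmer one had vehicle signals of 133, 76.7, 152, 84.7 and 106 and PE signals of 157, 128, 121, 123 and 178. These overlapped, and the log2 fold change was 0.34 ± 0.19 (limma adjusted p = 0.752). For the difference of the PE effects the brighter probe set had 0.53 ± 0.21 (limma adjusted p = 0.0825) and the dimmer 0.66 ± 0.27 (limma adjusted p = 0.104). The brighter one passed without PE outflow replicate 2 (0.62), vehicle apex replicate 4 (0.63) or vehicle outflow replicate 5 (0.61). It stayed uncalled in 25 of 31 alternative settings, with limma adjusted p up to 0.251.

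Ece1, the endothelin-converting enzyme, had vehicle outflow signals of 1401, 1668, 1666, 1303 and 1702 and PE outflow signals of 2788, 1693, 3455, 2990 and 2598. Again 4 of 5 PE arrays were above all vehicle arrays, and replicate 2 lay within the vehicle range. The mean rose from 1548 ± 183 to 2705 ± 649 (SD, n = 5 each). Between means of log2 signals, as limma takes it, the rise was 1.70-fold (log2 0.77 ± 0.16, limma adjusted p = 0.000618). The log2 fold change was 0.93 without that replicate. In the apex signals were 1437, 1705, 1851, 1534 and 1610 against 1875, 1646, 1844, 2067 and 1579, which overlapped, with a log2 fold change of 0.14 and a 95% interval from -0.18 to 0.47. The difference of the effects was 0.62 ± 0.22 (limma adjusted p = 0.056). It passed with the inferred rat as a replicate block (limma adjusted p = 0.0429) and without PE outflow replicate 2 (0.78, limma adjusted p = 0.00244). Of 31 alternative settings 22 left it uncalled, with limma adjusted p up to 0.165.

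The next comparison set the regions against each other within a treatment. In vehicle rats 0 of the 9 probe sets differed, 0 of them at an unadjusted p under 0.05, and limma called 0% of all probe sets, with 3.71% at an unadjusted p under 0.05. The largest difference was that of the brighter Agtr1a probe set, -0.41 ± 0.25 in the outflow tract relative to the apex (limma adjusted p = 1). In PE rats 7 of 9 were higher in the outflow tract and 0 lower, against 28.7% of all probe sets called and 16% higher. The 7 were both probe sets of Agtr1a (log2 1.73 ± 0.25 and 1.22 ± 0.31) and of Ace (0.62 ± 0.15 and 0.76 ± 0.19), with Edn1 (0.95 ± 0.28), Agt (0.93 ± 0.32) and Ece1 (0.55 ± 0.16). The groups did not overlap on 3 of the 9, the brighter Agtr1a probe set and both of Ace, as on 11.5% of all probe sets. The weakest calls were those of Agt (limma adjusted p = 0.0361), Edn1 (limma adjusted p = 0.0146) and Ece1 (limma adjusted p = 0.0112). Agt lost its call without PE apex replicate 2, 3 or 5 or PE outflow replicate 2, 3, 4 or 5 (0.75 to 0.97, adjusted p from 0.0502 to 0.105), and Edn1 without PE outflow replicate 4 (0.78, limma adjusted p = 0.0505). Under other settings Agt lost it in 7, with adjusted p from 0.0536 (1 added) to 0.356 (PE outflow replicates 1 and 3 alone). Ece1 lost it with arrays centred on their median (adjusted p = 0.0553) and in the fit of only these groups (adjusted p = 0.0556), and Edn1 in the latter (adjusted p = 0.0704). The dimmer Ace probe set lost it with PE outflow replicates 1 and 3 alone (adjusted p = 0.0613).

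Put in order of mean signal, PE outflow came first for Agtr1a, Edn1, Ace, Ece1 and Agt and PE apex second, except for Agt, where vehicle outflow (46.9 ± 10.8) was second. For the brighter Agtr1a probe set the order was 832 ± 376, 221 ± 49.8 in PE apex, 175 ± 33.0 in vehicle apex and 125 ± 9.88 in vehicle outflow. PE apex and vehicle apex did not pass the test against each other, nor did the vehicle groups. In PE outflow the SD was 45.2% of the mean for that probe set, 43.4% for Edn1 and 24.0% for Ece1, against 7.87%, 24.1% and 11.8% in vehicle outflow. Without PE outflow replicate 2 these were 32.0%, 21.0% and 12.4%, so that for Edn1 and Ece1 most of the excess over vehicle outflow lay in that array.

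Across the 20 arrays the log2 signals of Edn1 and Ece1 correlated at r = 0.919, and their deviations from the group means at 0.783. For Agtr1a (brighter probe set) and Edn1 the values were 0.891 and 0.603. These points share the 4 groups and PE outflow replicate 2, which was low for these genes, so the values are a description. Among 8128 other genes with a mean log2 signal above 8, those most like Agtr1a over the 20 arrays were Epb41l2 (r = 0.975), Praf2 (0.974) and Dkk3 (0.973), a secreted protein of the Dickkopf family. Deviations from the group means correlated at 0.859, 0.909 and 0.914 with these. Chi3l1 (0.943), Pdgfrb (0.94), the platelet-derived growth factor receptor of mural cells and fibroblasts, and Cfd (0.939) were most like Ace. For these the deviations from the group means correlated less, at 0.643, 0.662 and 0.635. Ece1 was closest to Bmp6 (0.955), a bone morphogenetic protein, 6330403K07Rikl (0.941) and Mamdc2 (0.939), with deviations correlating at 0.87, 0.839 and 0.809. Edn1, Agt and Agtr2 had means below 8 and were not searched.

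The wider pathway was read from 56 neighbouring genes, of which 48 were measured, each by its brightest probe set. In the outflow tract 14 rose, 6 fell and 28 were not called, against 26.3% of all genes higher and 18% lower. Their median log2 fold change was 0.17, and 0.10 over all genes. Without PE outflow replicate 2 the counts were 17 and 7, with 19 of the 20 calls shared. Over all probe sets that fit moved the calls too, from 6083 higher and 4637 lower to 6247 and 5278. In the apex 0 of 48 were called, against 0.0211% of all genes. The PE effect was higher in the outflow tract than in the apex for 7 and lower for 3, against 14.1% and 10.2% of all genes. Without PE outflow replicate 2 it was higher for 11 and lower for 6. Over all probe sets the calls for the difference went from 3056 higher and 2511 lower to 3739 and 3388 in that fit.

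The rises with the smallest p were those of Ccn2 (log2 3.17 ± 0.25), connective tissue growth factor, Arap1 (1.18 ± 0.14), Cma1 (2.27 ± 0.27), the mast cell chymase, and Cybb (1.58 ± 0.20), the catalytic subunit of a phagocyte NADPH oxidase. Limma adjusted p ran from 6.84e-08 (Ccn2) to 5.84e-06 (Cybb). Mean signal of Ccn2 went from 2367 to 21186 and that of Cma1 from 108 to 580. The falls with the smallest p were those of Plcb4 (-0.53 ± 0.10), a phospholipase C that Gq proteins activate, Nr3c2 (-0.50 ± 0.13), the mineralocorticoid receptor, Prkce (-0.79 ± 0.23), a protein kinase C, and Gna12 (-0.37 ± 0.11), a G protein subunit. Of these, Plcb4, Nr3c2 and Gna12 had all PE arrays below all vehicle arrays, as for 9.98% of all probe sets.

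Several neighbours act next to the members and are named here by choice after their values were seen. Atp6ap2, the prorenin receptor, rose by 1.07 ± 0.17 on the log2 scale and Agtrap, a protein that binds the type 1 receptor and promotes its internalisation, by 0.77 ± 0.16. Arrb2, a beta-arrestin that binds activated receptors, rose by 0.80 ± 0.16. The peptidase genes Anpep (1.25 ± 0.19), which encodes aminopeptidase N, Ece2 (1.20 ± 0.22), a relative of Ece1, and Phex (2.28 ± 0.34), of the same enzyme family, rose as well. Phex was dim in vehicle outflow, with a mean signal of 17.4 against 136 in PE outflow. Edn2, the gene of a second endothelin, fell (-1.20 ± 0.36, limma adjusted p = 0.0121) between mean signals of 51.6 and 15.5, both dim. Mme, the neprilysin gene, had 0.35 ± 0.32 and Mas1, an angiotensin fragment receptor, 0.07 ± 0.21, and neither was called. Group means of Mas1 ran from 8.60 to 15.1, below the 16 added before log2, so its value does not show equal expression.

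In the apex the smallest p values were those of Ccn2 (1.17 ± 0.25, limma adjusted p = 0.149), Cma1 (0.95 ± 0.27, limma adjusted p = 0.35), Rcan1 (0.70 ± 0.23), a calcineurin regulator, and Gnaq (0.75 ± 0.26), the Gq subunit, among positive values. Lnpep (-0.54 ± 0.28), Nr3c2 (-0.20 ± 0.13), Ecel1 (-0.60 ± 0.40) and Anpep (-0.19 ± 0.19) had the smallest among negative ones.

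**Figure D3:**
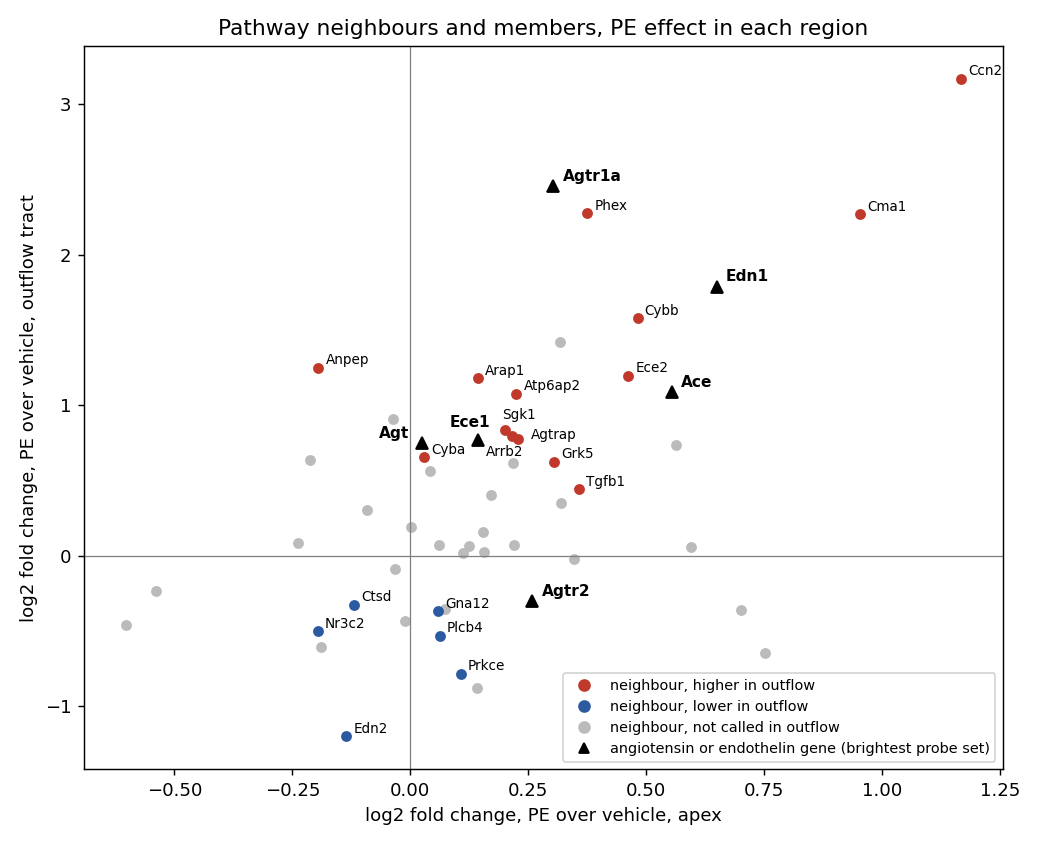
Log2 fold change of PE over vehicle in the apex (x) and the outflow tract (y) for the 48 measured pathway neighbours (circles, coloured by their limma call in the outflow tract) and the brightest probe set of each of the 6 genes (triangles). Ccn2 lies highest at 3.17, Agtr1a at 2.45, and Edn2 lowest at -1.20.

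Markers of cell types in the tissue were read beside these genes, and their counts stand against the 26.3% of all genes that were higher and the 18% that were lower in the outflow tract. In the outflow tract 3 of 11 measured endothelial markers were higher in PE (Vwf 1.84, Eng 1.11 and Tek 0.72 on the log2 scale), 1 was lower (Kdr -0.62, and 3 without PE outflow replicate 2) and 7 were not called. Their median log2 fold change was 0.01, below the 0.10 of all genes, with a summed signal of 17619 to 23057 on vehicle arrays and 26116 to 30642 on PE arrays. Of 12 smooth muscle and pericyte markers 8 were higher and 3 lower (summed signal 30269 to 36625, and 36825 to 61052). Of 12 fibroblast markers 10 were higher and 0 lower (93635 to 124600, and 180977 to 207269).

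Of 10 macrophage and monocyte markers 9 were higher (5820 to 6885, and 7910 to 23513), and of 7 measured mast cell markers 4 were (500 to 661, and 1111 to 1973), while 10 of 11 cardiomyocyte markers were lower. All 6 measured nerve and Schwann cell markers were higher (838 to 905, and 3068 to 4654). Of 6 measured adipocyte markers 3 were higher and 2 lower (42040 to 55345, and 20246 to 39966), and of 6 atrial cardiomyocyte markers 2 were higher and 1 lower (17967 to 21519, and 26641 to 51862). No marker of these 9 lists had a value of 0. In the apex 1 marker was called, Nppa of the atrial list, the atrial natriuretic peptide gene (log2 3.78 ± 0.48, limma adjusted p = 0.00591). In the fit without PE outflow replicate 2, 2 fibroblast markers and 1 macrophage marker were called higher there as well. In summed apex signal every PE array exceeded every vehicle array for fibroblast markers (108502 to 118762, and 119147 to 146479). So it was for macrophage and monocyte markers (5436 to 7245, and 7803 to 10055). Nerve and Schwann cell markers did the same (624 to 884, and 1099 to 1536). For cardiomyocyte markers every PE array was lower (437038 to 501774, and 371445 to 435975). Sums of the other lists overlapped. The part of these cell types in the changes of the angiotensin and endothelin genes was not tested. In whole tissue fewer cells of a type and less RNA per cell cannot be told apart.

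The dependence of the outflow results on the settings is drawn for the 7 probe sets other than those of Agtr2. Every setting kept the 6 calls in the outflow tract, whereas the difference between the regions was called in all settings for the brighter Agtr1a probe set alone.

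**Figure D4:**
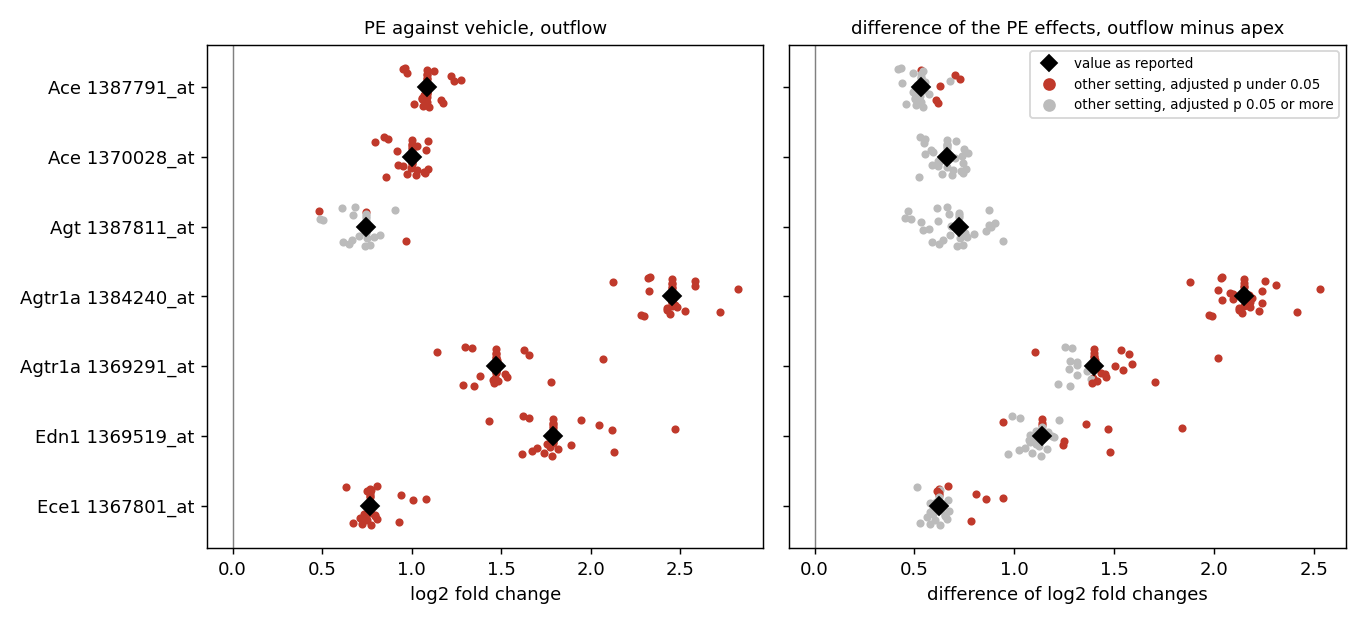
Left, log2 fold change of PE over vehicle in the outflow tract; right, the difference of the PE effects, outflow minus apex. Diamonds are the values as reported and small points the alternative settings, red where the limma adjusted p was under 0.05. All points of Agtr1a 1384240_at are red in both panels, between 2.13 and 2.82 on the left and 1.88 and 2.53 on the right.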

How the data were processed

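Signals of 20 arrays (5 in each of 4 groups) were taken from the deposited table. It holds 1 linear signal intensity for each probe set and array, made from 5 microgram of total RNA per the labels' protocols. All arrays had the same trimmed mean, and a scaling to it was inferred from the values. The software is not given in the sources used here. The platform annotation gave 1 symbol for 20826 of the 31042 probe sets tested, and 57 control probe sets were set aside. A gene was represented by its brightest probe set. Log2 of the signal plus 16 was fitted with limma 3.58.1 in R 4.3.3 as 4 groups over all 20 arrays (eBayes). Two-sided p-values were adjusted by Benjamini-Hochberg over 31042 probe sets for each of 5 comparisons. The fit was also run on simulated data with independent noise of equal spread in all groups. That run does not cover the uneven spread of the groups or arrays that share a rat. The members, gene lists and tests were chosen with earlier results of these data known. All member probe sets are reported. For the pathway neighbours the 4 smallest p in each direction are named, and for a member with a mean log2 signal above 8 the 3 genes with the highest correlation. The number of arrays limits the precision.

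Deviations from the group means over 12310 bright probe sets correlated at 0.181 to 0.283 between apex and outflow arrays of one treatment with the same replicate number, and each matched its own number best. A number was therefore taken to mark one rat of a treatment (consensus correlation 0.0651), and arrays of vehicle and PE rats were not paired. Alternatives were other scalings, a filter on dim probe sets, 1 or 64 added, fewer groups, other variance models, array weights, the replicate block, the GAPDH ratio, and leaving out arrays. Promoter windows came from RefSeq (GRCr8), with 5 of the 6 measured genes matched by symbol.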

Additional observations from a re-analysis of the deposited data

Results flagged for a closer look

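Agtr1a had a PE effect that differed between the regions by the limma test of the difference itself, by 2.15 on the brighter probe set and 1.40 on the dimmer one, on the log2 scale and larger in the outflow tract. Among the 36 sets of 5 arrays examined (9 probe sets in 4 groups), 1 array stood apart from the rest of its group by Dixon's criterion: vehicle outflow replicate 5, with a signal of 352.4 on the brighter Ace probe set against 256.2 to 277.7 on the others. Chance alone marks about 1 in 20 such sets.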

How the results depend on the processing

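Each of the 5 comparisons was refitted under 12 alternatives and without each of the 20 arrays, with the exception that the fit of only the compared groups does not exist for the difference of the PE effects. No called value changed sign. The count of called probe sets among the 9 was 0 in every setting in the apex and between the regions of vehicle rats, and 6 to 7 for PE against vehicle in the outflow tract. For the difference of the PE effects it was 2, against 1 with arrays centred on their median, 4 with 64 added, with an intensity trend and robust variances, with the rat as a replicate block or with PE outflow replicates 1 and 3 alone, and 5 with the dimmest 40% left out, with array weights or with the GAPDH ratio as a covariate. The filter on the dimmest 40% kept 6 of the 9 probe sets, without Agt and both probe sets of Agtr2. Over all probe sets it called 6428 of 18625 for the difference, against 5567 of 31042 in the main fit. Leaving out single arrays gave a count of 1 to 5. For the outflow tract against the apex in PE rats it was 7, against 4 in the fit of only these groups and 5 to 7 without single arrays. The cause was not tested. The replicate block of the rat added Edn1 and Ece1 to the calls for the difference and changed no other call of a member. The replicate number as a fixed block gave 6 calls for the PE effect in the outflow tract, 2 for its difference and 6 for the outflow tract against the apex in PE rats. Centring arrays on their median moved the median of all probe sets in the outflow tract from 0.05 to -0.08, and the split of calls from 6083 higher and 4637 lower to 4415 and 5966. The pathway neighbours had 20 calls in the outflow tract, and 17 to 24 in 3 fits added after seeing the data. Over all probe sets the calls were 10720 in the main fit and 7307 to 11525 in those fits. No detection calls were used here, so the dim probe sets of Agt and Agtr2 set the limit.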

Other observations

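Some pathway neighbours had estimated PE effects of opposite sign in the 2 regions, though none was called in the apex, so the tests bear on the difference alone. The PE effect was lower in the outflow tract than in the apex for Gnaq by 1.40 ± 0.37 on the log2 scale (limma adjusted p = 0.0133) and for Rcan1 by 1.06 ± 0.32 (limma adjusted p = 0.0284), and neither was called within a region. Mean signals of Rcan1, a calcineurin inhibitor that calcineurin itself induces, were 3043 in vehicle apex and 4946 in PE apex, 3204 in vehicle outflow and 2564 in PE outflow. For Anpep, which trims angiotensin peptides and was called higher in the outflow tract, the PE effect was larger in the outflow tract by 1.44 ± 0.26 (limma adjusted p = 0.00134), with mean signals of 338 in vehicle apex and 288 in PE apex, 359 in vehicle outflow and 861 in PE outflow. Its apex log2 fold change of -0.19 had a 95% interval from -0.59 to 0.20. In all, 7 of the 48 measured neighbours had a PE effect called higher in the outflow tract than in the apex and 3 lower, against 14.1% and 10.2% of all genes. Without PE outflow replicate 2 there were 11 higher and 6 lower. Over all probe sets that fit moved the calls too, from 3056 higher and 2511 lower to 3739 and 3388. The genes named here, apart from the counts, were picked after their values were seen.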
